A study of Mus musculus with 2 samples.

Results

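Olig2 peaks in the adult mouse spinal cord were examined at the genes of oxidative phosphorylation and of MICOS, the complex that shapes the mitochondrial inner membrane. Members were taken from the deposited list of peaks by the name of the nearest protein-coding gene: names that begin with Nduf (complex I), Sdha to Sdhd (complex II), Uqcr (complex III), Cox and a digit (complex IV) or Atp5 (complex V), and Minos1, Chchd3, Chchd6, Apool and Immt (MICOS). The rule found 19 peaks of the 4215 in the list, and these were assigned to 18 genes of the 3463 that were nearest to a peak. The rule itself uses names alone and no expression, score or position, but it was chosen with earlier results of these data known.

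Chromatin was prepared from whole spinal cords of C57BL/6 males aged 6 weeks and precipitated with a polyclonal antibody against Olig2, a basic helix-loop-helix factor of the oligodendrocyte lineage. Several cords went into each precipitation, and the Input sample, chromatin that was not precipitated, was not analysed here. Reads of both experiments were pooled before peaks were called, so each peak has 1 score and no replicate, and whole cord holds many cell types, so the list does not say in which cells a peak was bound. For each peak the list gives a position of 51 bp on mm10, a peak score whose unit is not named, the signed distance from the transcription start site (TSS) of the nearest gene, and hits of 20 sequence motifs.

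Oxidative phosphorylation couples the transfer of electrons along complexes I to IV of the inner mitochondrial membrane to proton pumping, and complex V uses the proton gradient to make ATP. Complex I takes electrons from NADH, complex II from succinate, complex III passes them from ubiquinol to cytochrome c, and complex IV passes them to oxygen. MICOS holds the crista junctions, the narrow necks of the membrane folds in which these complexes sit. Almost all subunits are encoded in the nucleus, where their promoters often lack a TATA box and carry sites for broadly expressed factors, and a few are encoded in mitochondrial DNA. Olig2 binds the E-box, written CANNTG.

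The sequences below are those on which the comparison of motifs rests. The first set holds the highest peak within 1 kb of the TSS in each complex with such a peak, and the further promoter peaks whose 51 bp held a motif on the list of letters searched. Ndufa7 and the 3 peaks far from a TSS that held an E-box were added after their values were seen. Capitals mark the deposited motif hits with the lowest log p in each peak. Each sequence is read 5′ to 3′ on the strand of the gene in GRCm38, and peaks with more than 30 bases in an annotated UTR are shown in part.
Minos1, chr4:139131068-139131097, minus strand: gcgcgccggctCCGGCCGGAAGCttatggt
Immt, chr6:71831224-71831274, plus strand: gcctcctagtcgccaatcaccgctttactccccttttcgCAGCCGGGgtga
Ndufs1, chr1:63176642-63176671, minus strand: CCATATTGacttagcggccagggttttgag
Ndufs8, chr19:3912773-3912823, minus strand: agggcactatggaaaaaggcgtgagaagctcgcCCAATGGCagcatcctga
Ndufa7, chr17:33824533-33824571, plus strand: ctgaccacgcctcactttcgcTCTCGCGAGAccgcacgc
Sdhb, chr4:140961232-140961282, plus strand: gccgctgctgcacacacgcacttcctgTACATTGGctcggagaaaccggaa
Sdhc, chr1:171150559-171150609, minus strand: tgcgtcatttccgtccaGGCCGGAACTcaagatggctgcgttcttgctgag
Uqcrfs1, chr13:30545350-30545400, minus strand: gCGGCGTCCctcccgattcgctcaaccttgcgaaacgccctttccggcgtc
Cox5b, chr1:36691456-36691506, plus strand: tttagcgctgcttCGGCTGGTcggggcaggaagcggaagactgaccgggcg
Cox8a, chr19:7217553-7217582, minus strand: TCCGGCTGGTtcggccatcttgactccctg
The second set holds the 3 peaks beyond 1 kb with an E-box in their 51 bp.
Ndufb9, chr15:58986657-58986707, plus strand: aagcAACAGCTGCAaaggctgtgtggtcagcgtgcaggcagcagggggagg
Ndufs7, chr10:80254374-80254424, plus strand: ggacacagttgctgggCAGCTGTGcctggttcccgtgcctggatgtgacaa
Ndufv3, chr17:31535882-31535932, plus strand: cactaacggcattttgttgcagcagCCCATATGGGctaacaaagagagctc
In Minos1 the capitals mark a hit of a motif that holds CCGGAAG, the core of ETS-family sites. In Ndufs8 and Sdhb they mark a CCAAT box, which reads ATTGG on the other strand. In Ndufa7 they mark the palindrome TCTCGCGAGA. In Ndufb9 and Ndufs7 they mark the E-box CAGCTG, which 32.9% of all 4215 peaks held in their 51 bp, and in Ndufv3 they mark the E-box CATATG. The capitals of Cox5b, Cox8a and Immt are hits of the same E-box motif as in Ndufb9, but their letters hold no CANNTG.

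Of 114 annotated members, 18 (15.8%, exact 95% interval 9.63 to 23.8) had at least 1 peak assigned to them, beside 14.1% of all 21774 protein-coding genes (3076 genes). The share of bound members thus lay close to the share of all genes. Intervals in this report cover counting error only and describe this list, not the spread between mice. Another member, Atp5mpl of complex V, has a peak in the list under its older name, 2010107E04Rik. With genes matched by identifier, a choice made after seeing the data, 19 of 114 members were bound (16.7%, 10.3 to 24.8).

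Bound genes were spread over the complexes. Complex I had 8 bound genes of 49 (16.3%, 7.32 to 29.7), complex II had 2 of 8 (25%, 3.19 to 65.1), complex III had 1 of 8 (12.5%, 0.316 to 52.7) and complex IV had 5 of 27 (18.5%, 6.3 to 38.1). Complex V had none under an Atp5 name and 1 of 17 by identifier (5.88%, 0.149 to 28.7), and MICOS had 2 of 5 (40%, 5.27 to 85.3). The intervals of all 6 groups overlapped each other and the 14.1% of all genes, so no order among the complexes can be read from these counts. The counts include assembly factors whose names share the prefix, such as those that begin with Sdhaf. With subunits only, 8 of 41 genes were bound in complex I, 2 of 4 in complex II and 4 of 18 in complex IV.

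**Figure D1:**
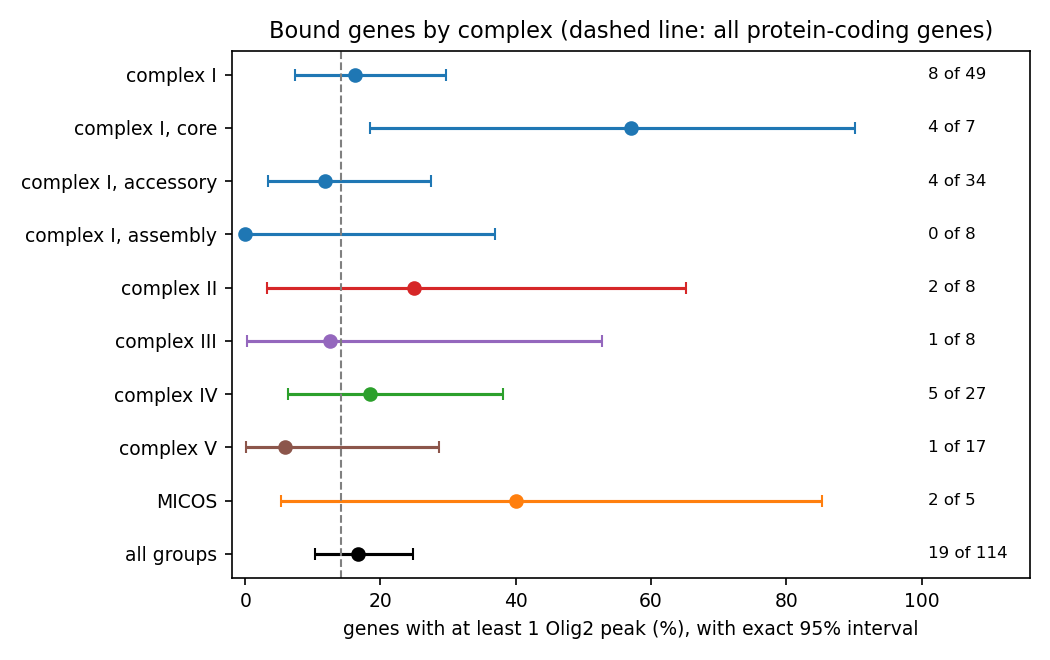
Share of annotated genes with at least 1 Olig2 peak, in percent, by complex and by class of complex I gene, with genes matched by identifier. Points are shares, bars are exact 95% intervals, the dashed line is the 14.1% of all protein-coding genes, and every interval but that of the 7 core subunits of complex I includes the line.

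Within complex I, 4 of the 7 core subunits, which carry the redox centres and are shared with bacteria, were bound (57.1%, 18.4 to 90.1). These were Ndufs1, Ndufs7, Ndufs8 and Ndufv1. Of the 34 genes taken by their Nduf name as accessory subunits, 4 were bound (11.8%, 3.3 to 27.5). These 34 include Ndufa4, which can also be counted with complex IV. Counted so, 8 of 48 genes were bound in complex I and 5 of 28 in complex IV. Of the 8 Ndufaf assembly factors none was bound, which allows a share of up to 37.5%. The core class was small and was defined with earlier results of these data known, and no test was made of its share. Over all complexes, 1 of 21 assembly factors named by the rule was bound (4.76%, 0.12 to 23.8), namely Cox18.

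The peak scores of members ran from 4.26 to 133 with a median of 14.2 (95% interval of the median 8.9 to 19.9), beside a median of 11.6 (11.4 to 12.1) for peaks of all other protein-coding genes. The interval for the members included the median of the other genes. By complex, the median was 15.7 for the 9 peaks of complex I, 12.5 for the 2 of complex II and 10.5 for the 5 of complex IV, and the only peak of complex III scored 14.2. Scores ran from 7.41 to 27.6 in complex I and from 4.26 to 26.5 in complex IV, so these ranges overlapped almost entirely. The MICOS peaks scored 133 and 8.41, ranks 4 and 2998 of the 4215 peaks.

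**Figure D2:**
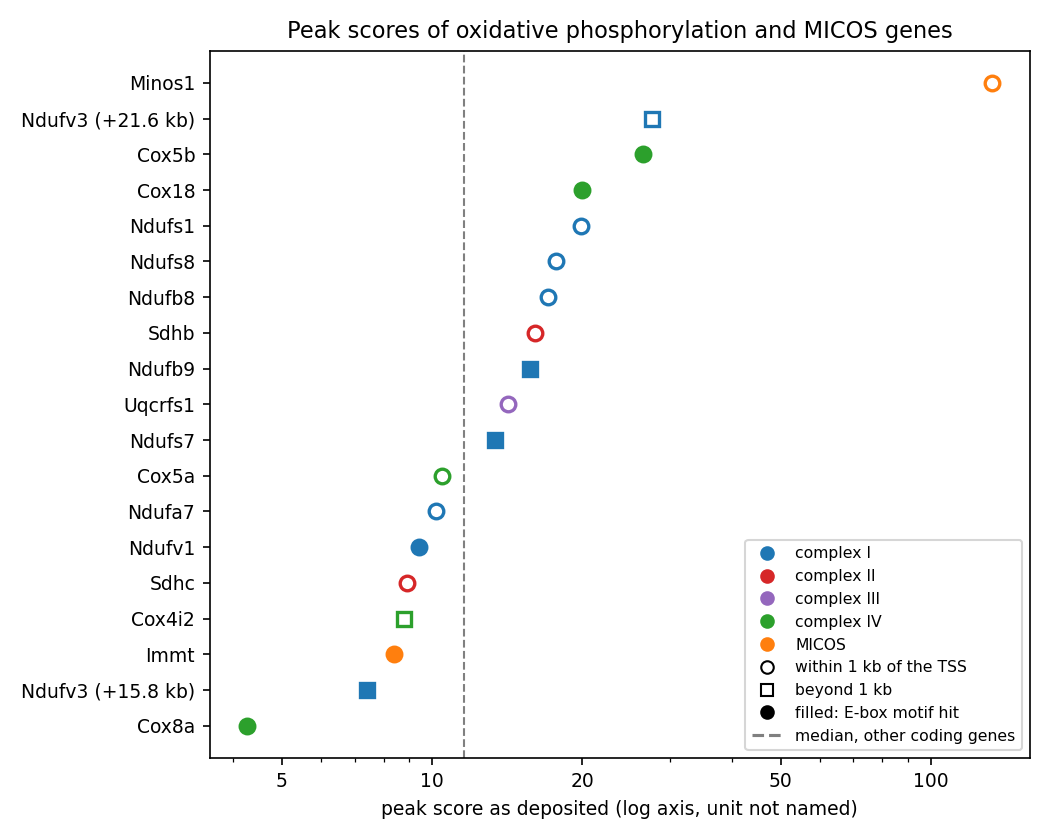
Deposited peak score of each of the 19 peaks on a log axis, coloured by complex. Circles are peaks within 1 kb of the TSS, squares are peaks farther away, filled symbols hold a hit of the E-box motif, and the dashed line is the median of 11.6 for other protein-coding genes. Minos1 stands at 133, and the next peak, of Ndufv3, at 27.6.

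Most member peaks lay at the promoter. Of the 19 peaks, 14 lay within 1 kb of the TSS (73.7%, 48.8 to 90.9), beside 43.9% of all peaks of protein-coding genes, and 13 lay within 100 bp (68.4%, 43.4 to 87.4), beside 23.9%. The 14 promoter peaks were spread over all groups with a peak: 5 of 9 in complex I, 2 of 2 in complex II, 1 of 1 in complex III, 4 of 5 in complex IV and 2 of 2 in MICOS. Of these 14 peaks, 10 lay upstream of the TSS (71.4%, 41.9 to 91.6), beside 75.7% of all promoter peaks. All 5 peaks beyond 1 kb lay downstream of the TSS, at distances of 4947 to 52872 bp, and 4 of them belonged to complex I. When any peak within 1 kb of a TSS counted for a gene, whatever gene it had been assigned to, 17 of 114 members had one, beside 9.21% of all protein-coding genes.

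**Figure D3:**
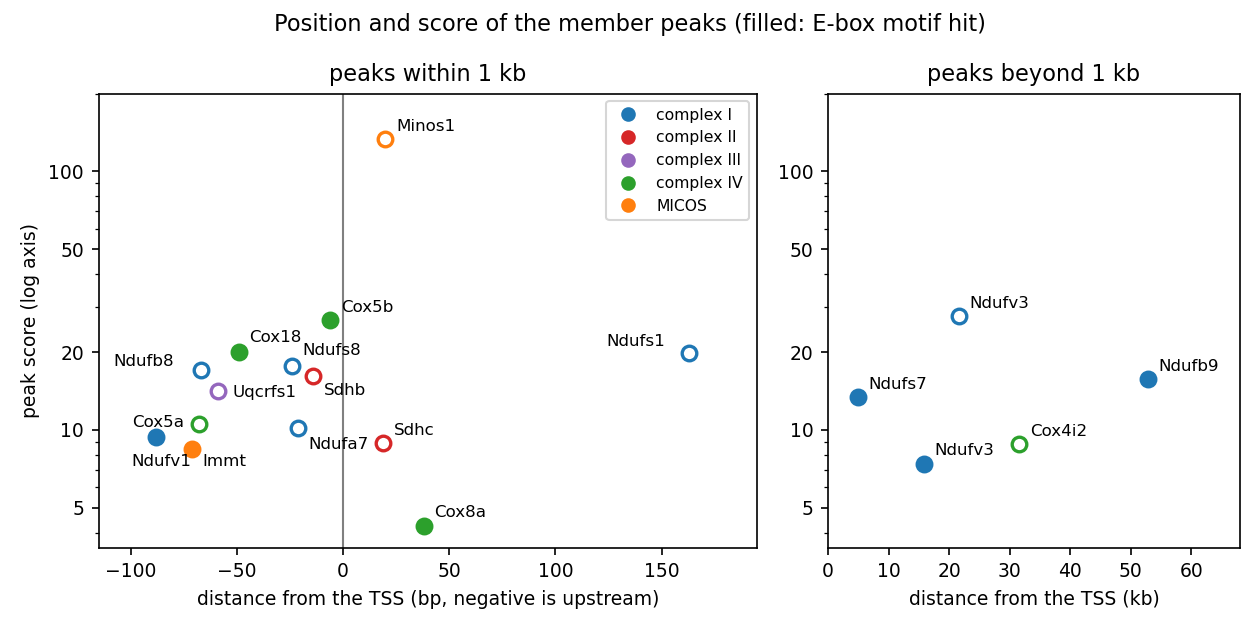
Peak score (log axis) against the signed distance of the peak centre from the TSS, in bp for the 14 peaks within 1 kb and in kb for the 5 peaks beyond, coloured by complex and filled where the E-box motif was hit. The 14 promoter peaks lie between -88 and 163 bp, and all 5 others lie downstream.

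In MICOS, the peak of Minos1, now named Micos10, had a score of 133 and was the 4th highest of the 4215 peaks. Minos1 encodes a small membrane protein whose oligomers bend the inner membrane at crista junctions. The peak centre lay 20 bp downstream of the TSS on chromosome 4, and 46 of its 51 bases were annotated as UTR. It held hits of motifs 9, 22 and 47 of the deposited set but none of the E-box motif. Immt, which encodes Mic60, the scaffold of the crista junction, had a peak with a score of 8.41 at -71 bp on chromosome 6. Chchd3, Chchd6 and Apool, which encode further MICOS subunits, were nearest to no peak.

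In complex I, the 5 promoter peaks belonged to 3 core and 2 accessory subunits. Ndufs1, the large subunit that carries iron-sulfur clusters of the NADH-oxidising arm, had the highest of them, with a score of 19.9 at 163 bp. In RefSeq the same peak lay 38 bp downstream of another Ndufs1 TSS and at -172 bp from the TSS of Eef1b2, a subunit of a translation elongation factor, on the opposite strand. Ndufs8, an iron-sulfur subunit close to the ubiquinone site, followed with a score of 17.7 at -24 bp. Ndufb8, an accessory subunit of the membrane arm, had a score of 17.1 at -67 bp, which RefSeq places at -40 bp. Ndufv1, which binds NADH and the flavin, had a score of 9.42 at -88 bp.

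Ndufa7, an accessory subunit, had a peak with a score of 10.2 at -21 bp that lay 11 bp downstream of the TSS of Rps28, a protein of the cytosolic ribosome encoded on the opposite strand. Of the 51 bases, 42 were annotated as UTR. The assignment to Ndufa7 rather than Rps28 follows the distances of the deposited list, and in RefSeq the TSS of Rps28 is the nearer one.

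The 4 peaks of complex I beyond 1 kb lay at 3 genes. Ndufv3, an accessory subunit of the NADH-oxidising arm, was the only member with more than 1 peak, and both were intergenic on chromosome 17, downstream of the gene. The peak at 21620 bp scored 27.6, and the peak at 15792 bp scored 7.41. They lay 5828 bp apart, and a peak assigned to Pknox1, a homeobox factor, lay 15903 bp from the higher of them. The higher peak had no hit of the E-box motif, a GC content of 39.2% and 4 hits of motif 54, and the lower one held the E-box CATATG and lay in a long terminal repeat by the deposited annotation. Ndufs7, a core subunit that carries the last iron-sulfur cluster before ubiquinone, had a peak with a score of 13.4 in its own intron 4 of 7, at 4947 bp. The peak assigned to Ndufb9, an accessory subunit of the membrane arm, had a score of 15.7 and lay 52872 bp from its TSS in intron 3 of 13 of Mtss1, a gene for a protein that binds membranes and actin. The nearest TSS of any annotated coding transcript was one of Mtss1, at 12975 bp.

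In complex II, both bound genes had their peak at the TSS. Sdhb, the iron-sulfur subunit, had a score of 16.1 at -14 bp on chromosome 4. Sdhc, which anchors the complex in the membrane and binds its haem, had a score of 8.9 at 19 bp on chromosome 1. The Sdhc peak covered 25 bases of UTR and 20 bases of coding sequence of the annotated transcripts. Sdha and Sdhd, the flavoprotein and the other membrane anchor, had no peak.

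In complex III, Uqcrfs1 was the only bound gene of the 8 with a Uqcr name. It encodes the Rieske iron-sulfur protein, which passes electrons on to the cytochrome. Its peak had a score of 14.2 and lay at -59 bp on chromosome 13. The genes of the core proteins, Uqcrc1 and Uqcrc2, had none.

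In complex IV, 4 of the 5 bound genes had a peak at the promoter. Cox5b, a nuclear-encoded subunit that binds zinc, had a score of 26.5 at -6 bp. Cox18, which inserts a mitochondrially encoded subunit into the membrane, followed with a score that rounds to 20, from just under it, at -49 bp. Cox5a, another nuclear-encoded subunit, had a score of 10.5 at -68 bp and the highest GC content of all member peaks, 80.4%. Cox8a, a small subunit of the membrane part, had the lowest score of all, 4.26, at 38 bp. Cox4i2, an isoform of Cox4 best known from lung, had a score of 8.8 at 31584 bp, in intron 2 of 2 of Bcl2l1, the gene of an inhibitor of apoptosis. It was the only bound gene of the 7 tissue-restricted isoforms, a class that included Cox6a2, Cox7a1 and Cox8b.

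In complex V, Atp5mpl, a small membrane subunit, had a peak with a score of 10.5 at -65 bp on chromosome 12, with a GC content of 72.5% and a hit of the E-box motif without CANNTG. Of the genes for the catalytic head, Atp5a1, Atp5b and Atp5c1, none had a peak. Members of complexes IV and V also had peaks at their TSS that were assigned to the neighbouring gene. A peak with a score of 20 assigned to Stxbp4 lay 68 bp upstream of Cox11, which delivers copper to complex IV, and a peak with a score of 25.2 assigned to Wdr77 lay 89 bp upstream of Atp5pb, a subunit of the stalk of complex V. Neither had a hit of the E-box motif. Counted with these, complex V had 2 of 17 genes with a peak within 1 kb. The list does not say which of the paired genes such a peak belongs to.

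The E-box motif, the deposited motif with the lowest log p (-942), was hit in 8 of 19 member peaks (42.1%, 20.3 to 66.5), beside 58.2% of all peaks of protein-coding genes. Among peaks within 1 kb it was hit in 5 of 14 (35.7%, 12.8 to 64.9), beside 33.6% of other promoter peaks, and among peaks beyond 1 kb in 3 of 5 (60%, 14.7 to 94.7), beside 77.5%. Set against peaks at like distance, the members' intervals thus included the share of other genes. By complex, the motif was hit in 4 of 9 peaks in complex I, 0 of 2 in complex II, 0 of 1 in complex III, 3 of 5 in complex IV and 1 of 2 in MICOS. The promoter peaks with a hit were those of Cox5b, Cox18, Cox8a, Immt and Ndufv1.

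The letters under these hits differed with distance. None of the 14 promoter peaks held CANNTG in its 51 bp (0%, 0 to 23.2), beside 26.3% of other promoter peaks (428 of 1625). The latter share lay just above the interval, as 1 of many shares compared, and the difference was not tested. All 3 peaks with a hit beyond 1 kb, of Ndufb9, Ndufs7 and Ndufv3, held CANNTG, beside 81.1% of other distal peaks with a hit. Of the 5 promoter hits, 0 held CANNTG in the letters of the hit (0%, 0 to 52.2), beside 54.4% of other promoter peaks with a hit. That share of 54.4% also lay just above the interval, and the difference was not tested. In Cox5b and Cox18 the hits began with CGGCTGG, and in Ndufv1 the hit read AAGCTGGA. In 200 bp around the centre, CANNTG was found at 7 of 14 promoter peaks (50%, 23 to 77), beside 57.2%. CAGCTG was found there at 0 of 14 (0%, 0 to 23.2), beside 24.4%, which again lay just above the interval and was not tested. In the 300 bp RefSeq promoter, which was at hand for 11 of the 14 genes, CANNTG was found in 8 (72.7%), beside 72.1% of the promoters of all 17492 genes. Motifs were searched on both strands, and a match of letters is not evidence that a factor binds there.

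Other letters known from promoters of nuclear genes for mitochondrial proteins were searched in the same windows. CCGGAAG, of the ETS family to which GABP belongs, was found in 200 bp around 6 of 14 promoter peaks (42.9%, 17.7 to 71.1), those of Cox5b, Cox8a, Immt, Minos1, Ndufs8 and Sdhb, beside 22.5% of other promoter peaks. In the 51 bp it was found in those of Cox8a and Minos1 (14.3%, 1.78 to 42.8), beside 10.4%. CCAAT, of the kind bound by NF-Y, was found in the 51 bp of Immt, Ndufs8 and Sdhb (21.4%, 4.66 to 50.8), beside 20.2%. In 200 bp it was found around the same 3 peaks, beside 44.1% of other promoter peaks. AAGATGGC, of the YY1 type, was found in the 51 bp of Cox8a and Sdhc (14.3%, 1.78 to 42.8), beside 1.35% of other promoter peaks (22 of 1625), and in 200 bp also at Ndufb8 (21.4%, 4.66 to 50.8), beside 5.48%. In the peak of Sdhc these letters overlap the start codon. GCGCATGC, of the NRF1 type, was in the 51 bp of none, beside 1.72%, and in the 200 bp of Cox18 and Sdhb (14.3%, 1.78 to 42.8), beside 5.42%. In each case the count among members was 6 or fewer, and of these shares that of AAGATGGC in 51 bp had an interval wholly above the share of other promoter peaks, as 1 of many shares compared.

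The same letters were counted in the RefSeq promoters of members with and without an assigned peak within 1 kb. Those without include members bound farther away, such as Ndufs7. They also include Cox11 and Atp5pb, whose promoter peaks were assigned to a neighbouring gene. CCGGAAG was in the promoters of 5 of 11 members bound within 1 kb (45.5%, 16.7 to 76.6) and in 25 of 83 others (30.1%, 20.5 to 41.2), beside 12.9% of all promoters. AAGATGGC was in 1 of 11 (9.09%, 0.23 to 41.3) and 12 of 83 (14.5%, 7.7 to 23.9), beside 3.57%. CAGCTG was in 0 of 11 and 6 of 83 (7.23%, 2.7 to 15.1), beside 17.4%. The intervals of members bound within 1 kb and of the others overlapped for each of these letters.

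Of the other deposited motifs, motif 54, most often the word TGATTGGC, was hit in 4 of 14 promoter peaks (28.6%), beside 21.7% of other promoter peaks, namely those of Immt, Ndufs8, Sdhb and Uqcrfs1. Motif 22, whose most frequent word was ACTTCCGGTCCG, was hit in those of Cox5b, Cox8a and Minos1 (21.4%), beside 11.9%. Motif 47, most often TCTCGCGA, was hit in those of Minos1 and Ndufa7 (14.3%), beside 4.37%. Minos1 was the only member peak with hits of 3 different motifs.

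**Figure D4:**
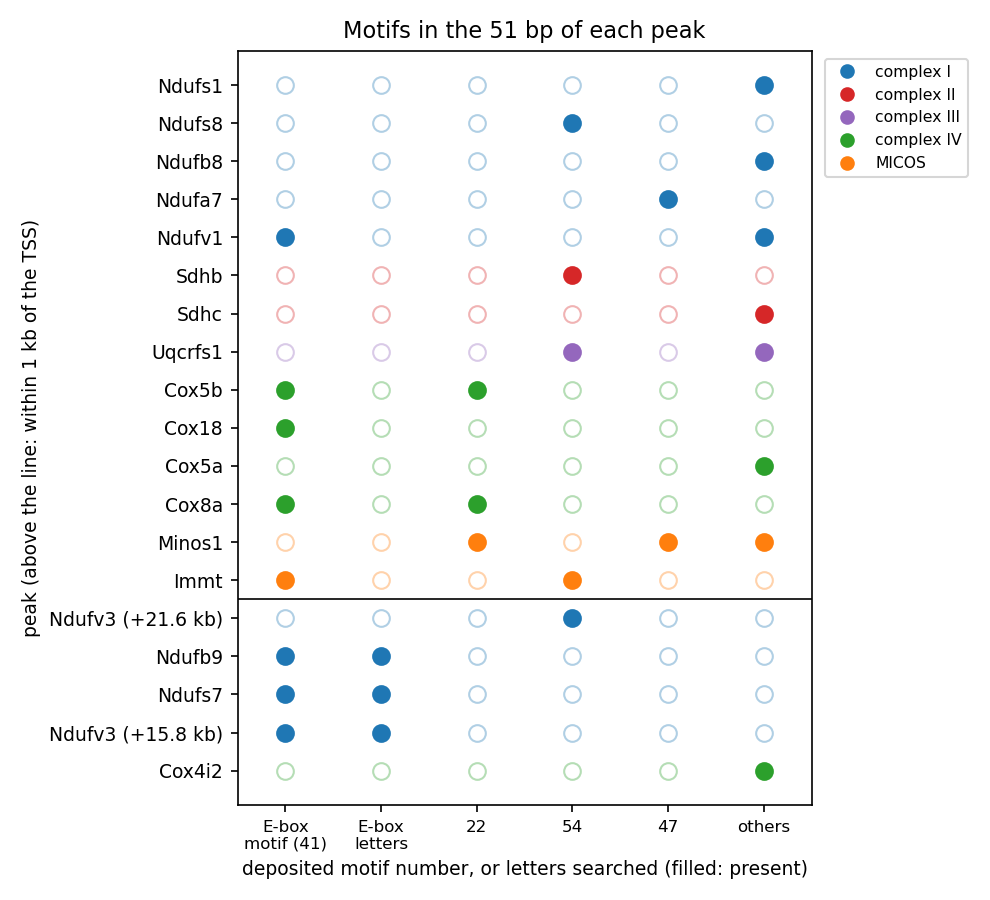
Presence (filled) or absence (open) of motifs in the 51 bp of each of the 19 member peaks, coloured by complex. Columns are the deposited E-box motif, the letters of an E-box wherever they occur in the peak, deposited motifs 22, 54 and 47, and any other deposited motif. The 14 promoter peaks above the line have no E-box letters, and 3 of the 5 peaks below it have them.

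Other genes of the pathway that the name rule misses were counted from a list, which was chosen with earlier results of these data known. Of 50 such genes, 12 were bound (24%, 13.1 to 38.2), beside 14.1% of all protein-coding genes. Of these 12, 10 had an assigned peak within 1 kb. Among all protein-coding genes 9.21% had a peak within 1 kb, but that share counts any peak, whatever gene it was assigned to. All 10 belonged to the 29 assembly factors (34.5%, 17.9 to 54.3), beside 1 of the 21 named by the rule, a difference that was not tested. They were Tmem126b with a score of 16.7 at -94 bp, Tmem126a with 11.6 at -10 bp, Timmdc1 with 5.06 at -42 bp and Foxred1 with 11.1 at -48 bp, all of complex I, and Lyrm7 of complex III with 19.9 at -76 bp. For complex IV they were Coa6 with a score of 14.3 at -22 bp, Taco1 with 4.67 at -32 bp, Higd1a with 15.7 at 381 bp, and Coa4, with 8.8 at -47 bp and a further peak of 18.7 at 18372 bp. For complex V it was Atpaf2, with a score of 10.0 at 42 bp. Cyc1, a subunit of complex III without a Uqcr name, and the electron carrier Cycs had no peak, nor had the regulators Nrf1, Gabpa, Ppargc1a or Tfam. Among the 11 regulators only Yy1 was bound, with a score of 5.67 at -35202 bp. Among 7 further genes of MICOS and its partners only Mtx2 was bound, with a score of 11.1 at 135582 bp. These 7 include the MICOS genes Apoo and 2410015M20Rik, which had no peak and are not among the 5 MICOS members counted above.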

How the data were processed

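Peaks came from Olig2 ChIP of whole spinal cord. Per the paper and the submitters' notes, the authors used BWA for alignment to mm10, MACS2 for peaks of the pooled reads against Input, and HOMER for annotation and motifs. These tools ran within a BaseSpace application. The peak score was made by the authors and used as deposited. GC and CpG content were deposited as a fraction. The headers of gene type and description are swapped in the deposited list, and a second table that repeats some peaks was not used. Depth per peak is unknown.

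Here, members were taken by gene name, and annotated members were counted in the RefSeq annotation of GRCm38.p6, which also gave the sequences. The deposited GC content matched it at 4215 of 4215 peaks (tolerance 0.0001), and 7177 of 7177 motif hits lay at their place. A bound gene is one nearest to at least 1 peak. Intervals are exact (Clopper-Pearson, 95%), for medians from order statistics, and limits for 0 use 3 counts. No test was made. Members and lists were chosen with earlier results of these data known. Every bound member is named, with most space for the 2 highest of each complex, those with more than 1 peak and those at a shared TSS, apart from results that are not reported here. Usmg5 of the other list is Atp5md and was counted in complex V. The counting and search were tested on simulated data. Python 3.11.15, pandas 2.3.3, scipy 1.17.1, pysam 0.24.0 and matplotlib 3.10.9 were used.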

Additional observations from a re-analysis of the deposited data

How the results depend on the processing

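Of 59 alternatives, 38 left the value within the limits set and 21 moved it. A score of at least 20 left 3 bound genes in all, with 1 in complex I, 0 in complex II, 0 in complex III, 1 in complex IV and 1 in MICOS. A score of at least 10 left 1 in complex II, 3 in complex IV and 1 in MICOS. Peaks with the E-box motif alone left 8 in all, with 4 in complex I, 0 in complex II, 0 in complex III, 3 in complex IV and 1 in MICOS. In complex I, peaks within 1 kb alone left 5 genes, and any peak within 1 kb of a TSS of the gene gave 5. The latter gave 2 in complex V. Matching by identifier, which was chosen after seeing the data, gave 1 in complex V. The share of peaks with the E-box motif was 15.8% when CANNTG in the 51 bp was required and 10.5% for CAGCTG in 200 bp. The median score stayed between 13.8 and 15.2 under its 4 alternatives, and the share within 1 kb between 73.7% and 76.9%. No paired analysis was possible because there is a single list of peaks from pooled reads. The missing replicates and the unnamed unit of the score limit these counts, as does the small size of each group.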

Other observations

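The list also held 3 peaks on mitochondrial DNA, which the name rule leaves out although they lie in genes of complex I. Those in ND1, a core membrane subunit, had scores of 10.5 and 6.14, and that in ND5, another core membrane subunit, had a score of 4.33. None had a hit of the E-box motif.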
